A study of Homo sapiens with 18 samples.

Results

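Keratin mRNAs were followed in MDA-MB-231 cells, an established human TNBC (triple-negative breast cancer) cell line with a mesenchymal character. The set was a list of 7 keratin genes, KRT7, KRT8, KRT18, KRT19, KRT80, KRT81 and KRT86, taken up by symbol from the counts of every library. It was drawn up with earlier results of the same data known, because KRT7 rose with Dex in siNS cells and less so after HP1γ depletion. The list was thus chosen by the Dex responses of KRT7 in siNS and siHP1γ cells, and these values are given as a description, without a test. Of the 7 keratins, 6 had a count row (KRT86 was not analysed here) and 4 (KRT7, KRT8, KRT18 and KRT80) had enough counts to be tested, out of 60642 gene symbols of which 15298 were tested.

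The cells carried 1 of 3 siRNA pools: siNS (a non-specific sequence), siHP1γ (directed at CBX3, which encodes HP1γ) or siPRMT5. Each was treated for 8 h with 100 nM Dex (dexamethasone, a synthetic glucocorticoid that activates the glucocorticoid receptor, GR) or with Eth (ethanol, the vehicle), which gave 6 conditions of 3 replicates and 18 libraries. All conditions thus share the same cell line, transfection and solvent, and none holds more than this 1 line. HP1γ is a chromatin protein that can act as a coregulator of GR, and PRMT5 is an arginine methyltransferase. The libraries were made from total RNA with Lexogen kits, and their reads were counted per gene.

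Keratins are the intermediate filament proteins of epithelial cells. A filament is built from pairs of 1 acidic (type I) and 1 basic (type II) keratin, so the amount of each type matters for the other. KRT8 (type II) and KRT18 (type I) form the basic pair of simple, single-layered epithelia, KRT7 (type II) and KRT19 (type I) accompany them in ducts such as those of the breast, KRT80 is a type II keratin of differentiating epithelia, and KRT81 and KRT86 are type II keratins of hair. Mesenchymal cells, and carcinoma cells that have undergone an epithelial-mesenchymal transition, rely mainly on vimentin (VIM).

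In hg38 with the GENCODE 44 annotation, 6 of the 7 genes lie in the type II cluster of chromosome 12, where the type I gene KRT18 sits beside its partner KRT8. KRT80 spans bases 52168996 to 52192014 (minus strand), KRT7 52232520 to 52252186 (plus), KRT86 52249300 to 52309163 (plus), KRT81 52285913 to 52291534 (minus), KRT8 52897187 to 52949954 (minus) and KRT18 52948871 to 52952906 (plus). KRT19 lies in the type I cluster of chromosome 17, at 41523617 to 41528308 (minus). KRT8 and KRT18 share 525 exonic bases on opposite strands, and KRT7 shares 282 with its antisense gene KRT7-AS, which had 0 to 6 counts in a library. KRT81 lies inside the span of KRT86 without a shared exonic base. The strand setting of the counting is not given in the sources used here, so reads in the shared bases cannot be assigned to a strand.

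The libraries held 8682992 to 12472381 counts, and levels are given in CPM (counts of a gene relative to the library's total, scaled between libraries by TMM, trimmed mean of M-values). In siHP1γ cells CBX3 was at 3.89% of its siNS level with Eth and at 5.998% with Dex, and in siPRMT5 cells PRMT5 was at 2.96% and 4.42%. Replicate 1 of siHP1γ with Dex stood apart from its group: it and replicate 3 differed with a chi-square of 12.3 per degree of freedom over genes, against 2.10 to 7.38 in the other replicate pairs. The 6 counted keratins summed to 419.6 CPM in it, the lowest of all libraries, and results that involve this group are given with and without it where it matters. The 15 mesenchymal markers summed to 8696 to 12816 CPM in a library, mostly from VIM (7463 CPM), MSN (1455) and CD44 (638.1), while CDH2, CDH11, FOXC2 and TWIST2 of the same list had at most 5 counts in any library. By contrast the 15 epithelial markers summed to 23.3 to 35.4 CPM, with EPCAM (11.1 CPM), CLDN7 (8.39) and CLDN4 (5.48) the highest, CDH1 (E-cadherin) at no more than 1 count in any library and GRHL2 at 0 in all 18. The data thus hold the mesenchymal markers at a high level, though not each of them, beside a low level of some epithelial ones.

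KRT18 and KRT8 were the main keratins of these cells. Levels between genes were compared per kilobase of the canonical transcript, with the reservation that the coverage of the transcripts by this kit is not stated. In siNS cells with Eth, KRT18 stood at 252 ± 22.3 CPM per kilobase (mean ± SD, n = 3) and KRT8 at 154 ± 28.9. KRT80 followed at 3.29 ± 0.644 and KRT7 at 1.82 ± 0.632, and KRT19 and KRT81 were below 0.3 CPM per kilobase in every condition. Over the 6 conditions KRT18 ranged from 190 to 275 CPM per kilobase, KRT8 from 113 to 175, KRT80 from 3.29 to 10.9 and KRT7 from 1.82 to 8.57. The order of the first pair never changed, while that of KRT7 and KRT80 was reversed in siNS cells with Dex (7.11 against 4.11). This reversal depends on the scaling by length, since in CPM KRT80 stayed above KRT7 there (15.9 against 11.6).

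**Figure D1:**
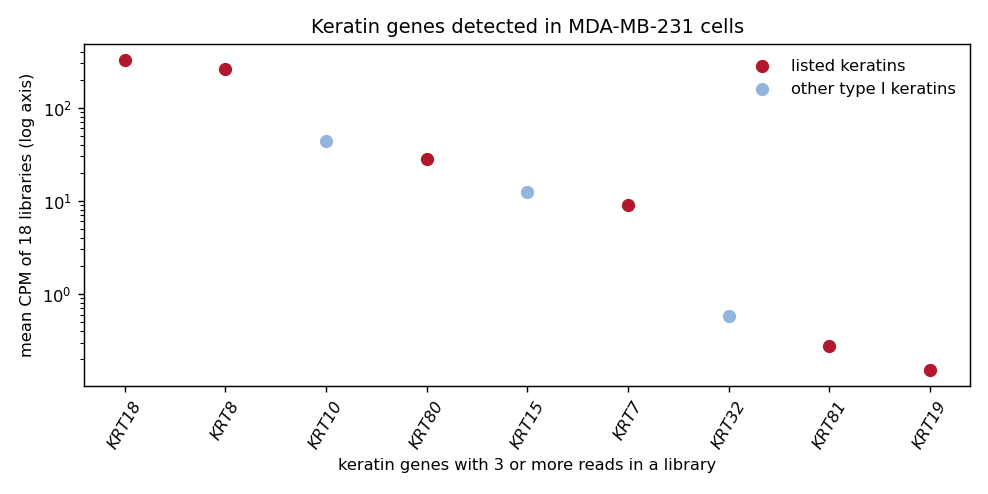
Mean level over the 18 libraries, in CPM on a log axis, of the 9 keratin genes that reached 3 or more reads in a library, with the listed keratins in red and other type I keratins in blue. KRT18 (328.6 CPM) and KRT8 (259.5) stand far above KRT10, KRT80, KRT15 and KRT7, and KRT32, KRT81 and KRT19 lie below 1 CPM.

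The Dex response of KRT7 in siNS cells was the reason for its choice. Its level with Eth was 1.77, 3.57 and 3.52 CPM in replicates 1 to 3, and with Dex it was 12.45, 11.2 and 10.97 CPM. The groups were far apart, with a log2 fold change of 1.95 ± 0.208 (standard error). In siHP1γ cells KRT7 was at 6.04, 7.29 and 6.31 CPM with Eth and at 6.38, 10.5 and 11.1 CPM with Dex. Here the lowest Dex library, replicate 1, lay within the Eth libraries, and the log2 fold change was 0.49 ± 0.181, or 0.72 without that library. The difference of the 2 responses was -1.47 ± 0.282 on the log2 scale, -1.23 without siHP1γ Dex replicate 1 and -1.21 without siNS Eth replicate 1. These libraries chose the gene, so no test is given, and 2.71% of all genes passed the threshold for Dex (adjusted p under 0.01 and at least 1.5-fold) in siNS cells, 1.67% in siHP1γ cells, and 0.399% the threshold for the difference (adjusted p under 0.05).

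The smaller response in siHP1γ cells came with a higher starting level. With Eth, KRT7 was higher in all 3 siHP1γ libraries than in all 3 siNS libraries, with a log2 difference of 1.14 ± 0.227 (0.88 without siNS Eth replicate 1). With Dex, the ranges of siHP1γ and siNS overlapped, and the difference was -0.33 ± 0.166, or -0.10 without siHP1γ Dex replicate 1. Both differences use the siNS libraries that entered the choice of KRT7 and are given as a description.

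The Dex response of KRT7 in siPRMT5 cells rests on 6 libraries that had no part in its choice. KRT7 was at 10.1, 9.16 and 8.50 CPM with Eth and at 14.1, 13.9 and 13.8 CPM with Dex, without overlap. The log2 fold change was 0.59 ± 0.167 (1.51-fold), with an adjusted p = 0.0141 in edgeR's quasi-likelihood test, which misses the threshold of 0.01 for Dex. It passed the threshold with no filter on low counts (adjusted p = 0.00173) and with these 6 libraries alone (adjusted p = 0.0038), and the adjusted p ranged up to 0.0628 when single libraries were left out.

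As in siHP1γ cells, KRT7 started higher in siPRMT5 cells. With Eth it was 1.63 ± 0.218 above siNS on the log2 scale and with Dex 0.27 ± 0.158, and the difference of the Dex response from that in siNS cells was -1.36 ± 0.273. These 3 values share the siNS libraries with those of siHP1γ and are again descriptions. From low to high, KRT7 was ordered as siNS Eth, siHP1γ Eth, siPRMT5 Eth, siHP1γ Dex, siNS Dex and siPRMT5 Dex (2.95, 6.55, 9.25, 9.31, 11.6 and 13.9 CPM). Of these neighbours, siPRMT5 Eth and siHP1γ Dex overlapped, as did siHP1γ Dex and siNS Dex, and the other neighbours did not. KRT7 rests on 16 to 169 counts in a library, the lowest being siNS Eth replicate 1.

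**Figure D2:**
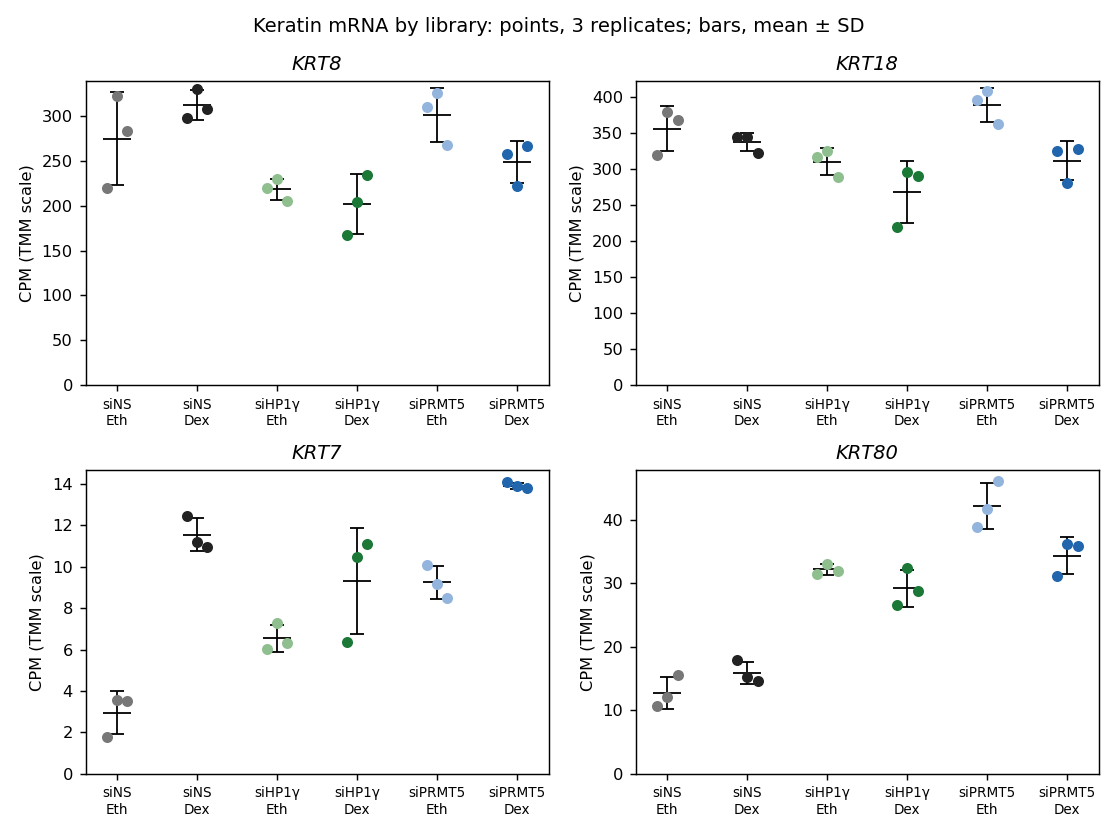
Level of KRT8, KRT18, KRT7 and KRT80 in each library (points, in order of replicate number) with the mean and SD of each condition (bars), in CPM on linear axes that start at 0. KRT7 in siNS cells goes from 2.95 to 11.6 CPM with Dex, KRT80 is higher in all 12 depleted libraries than in all 6 siNS libraries, and replicate 1 of siHP1γ Dex is the lowest point of KRT8 and KRT18.

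KRT80 showed the largest tested change of the listed keratins, and it rose after both depletions, with and without Dex. In siNS cells it was at 10.7, 12.0 and 15.5 CPM with Eth and at 17.8, 15.3 and 14.6 CPM with Dex. In siHP1γ cells it was at 31.5, 33.1 and 32.0 CPM with Eth and at 26.6, 32.4 and 28.8 CPM with Dex. In siPRMT5 cells it was at 38.9, 41.7 and 46.1 CPM with Eth and at 31.1, 36.2 and 35.9 CPM with Dex. Every depleted library lay above every siNS library.

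The rise of KRT80 in siHP1γ cells was 2.52-fold with Eth (log2 1.33 ± 0.122, adjusted p = 7.09e-09, edgeR) and 1.83-fold with Dex (0.87 ± 0.117, adjusted p = 3.57e-06). In siPRMT5 cells it was 3.30-fold with Eth (1.72 ± 0.120, adjusted p = 1.53e-11) and 2.16-fold with Dex (1.11 ± 0.116, adjusted p = 2.11e-08). These 4 calls held under every alternative processing and without any single library. The siHP1γ and siPRMT5 comparisons share their siNS libraries.

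KRT80 did not pass the threshold for Dex in siPRMT5 cells (log2 -0.30 ± 0.106, adjusted p = 0.0576), and its values were 0.32 ± 0.131 in siNS cells and -0.14 ± 0.108 in siHP1γ cells, which are given as descriptions. The Dex response differed between siPRMT5 and siNS cells by -0.61 ± 0.168 (interaction, adjusted p = 0.0383). Of the 3 keratins tested for this difference (KRT7 was not), KRT80 was the 1 call, where 3.8% of all genes passed. The call was lost in 11 of the 18 fits without 1 library (adjusted p up to 0.152), among them those without any 1 of the siNS Dex replicates, so it is near the threshold.

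KRT8, of the simple-epithelium pair, fell after HP1γ depletion with and without Dex, and its partner KRT18 fell with Dex. KRT8 was at 219.9, 322 and 283.1 CPM in siNS cells with Eth and at 219.7, 229.6 and 205.7 CPM in siHP1γ cells with Eth, and replicate 1 of siNS lay among the depleted libraries. It fell to 79.4% (log2 -0.33 ± 0.114, adjusted p = 0.0266). With Dex, KRT8 was at 297.6, 330.3 and 308.4 CPM in siNS cells and at 167, 204.7 and 234.1 CPM in siHP1γ cells, without overlap. It fell to 64.7% (log2 -0.63 ± 0.114, adjusted p = 0.000183), and by 0.51 on the log2 scale (adjusted p = 0.00147) without siHP1γ Dex replicate 1.

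KRT18 was at 344, 345 and 322.5 CPM in siNS cells with Dex and at 218.9, 296.3 and 290.1 CPM in siHP1γ cells with Dex, without overlap. It fell to 79.6% (log2 -0.33 ± 0.0926, adjusted p = 0.0105), but without siHP1γ Dex replicate 1 the difference was -0.20 and the call was lost (adjusted p = 0.0872). With Eth, KRT18 was at 320, 379 and 368.5 CPM in siNS cells and at 316.8, 324.3 and 288.9 CPM in siHP1γ cells, which overlap, and it did not pass (log2 -0.20 ± 0.0925, adjusted p = 0.105). It passed without siNS Eth replicate 1 (adjusted p = 0.0401), without siHP1γ Dex replicate 1 (0.03) and with the libraries of the comparison alone (0.0143).

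After PRMT5 depletion, KRT8 was at 257.3, 222.4 and 266.3 CPM with Dex, below all 3 siNS libraries with Dex, and fell to 79.6% (log2 -0.33 ± 0.113, adjusted p = 0.0210). The call was lost without siNS Dex replicate 2 (adjusted p = 0.0867), siNS Dex replicate 3 (0.05) or siPRMT5 Dex replicate 2 (0.119). With Eth, KRT8 (log2 0.13 ± 0.113, adjusted p = 0.388) and KRT18 (0.13 ± 0.0923, adjusted p = 0.289) did not pass, nor did KRT18 with Dex (-0.12 ± 0.0924, adjusted p = 0.333). KRT8 without siNS Eth replicate 1 was at -0.01. The smaller call of KRT8 in siHP1γ cells with Eth was likewise lost without any 1 of siHP1γ Eth replicates 1 and 3 and siNS Eth replicates 2 and 3 (adjusted p up to 0.193).

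The Dex values of the pair lay between -0.32 and 0.18 on the log2 scale. In siNS cells the log2 fold change was 0.18 ± 0.113 for KRT8 and -0.08 ± 0.0923 for KRT18, and in siHP1γ cells -0.11 ± 0.114 and -0.21 ± 0.0927, all as descriptions. In siPRMT5 cells KRT18 was at 395.5, 408.2 and 362.3 CPM with Eth and at 325.3, 280.1 and 328.3 CPM with Dex, without overlap. Its log2 fold change there was -0.32 ± 0.0925 (adjusted p = 0.0164) and that of KRT8 was -0.28 ± 0.113 (adjusted p = 0.107), and neither passed the threshold for Dex. The 2 genes varied together, with a Pearson r of 0.866 for log2 CPM over the 18 libraries, which share conditions, whereas r was 0.17 between KRT7 and KRT8, -0.064 between KRT7 and KRT18 and 0.544 between KRT7 and KRT80. KRT8 and KRT18 share 525 exonic bases on opposite strands, and what reads there add to their r was not tested. The ratio of KRT8 to KRT18, both per kilobase, lay between 0.544 and 0.758 in all libraries and was 0.734 ± 0.0419 in siNS cells with Dex against 0.609 ± 0.0643 with Eth.

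The counts of listed keratins called were read against the share of all genes called. Without KRT7, the 3 tested keratins gave 2 calls in siHP1γ cells with Eth (background 31.8%) and 3 with Dex (24%), and 1 call in siPRMT5 cells with Eth (42.1%) and 2 with Dex (42.4%). With only 3 genes, of which KRT8 and KRT18 varied together, the counts cannot tell whether keratins stand apart from other genes. In direction, KRT80 was higher in all 4 comparisons and each call of KRT8 or KRT18 was lower. The siHP1γ and siPRMT5 comparisons share their siNS libraries here too. For the Dex response in siPRMT5 cells edgeR called 0 of the 4 tested keratins, where 5.44% of all genes passed, and DESeq2 also called 0.

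**Figure D3:**
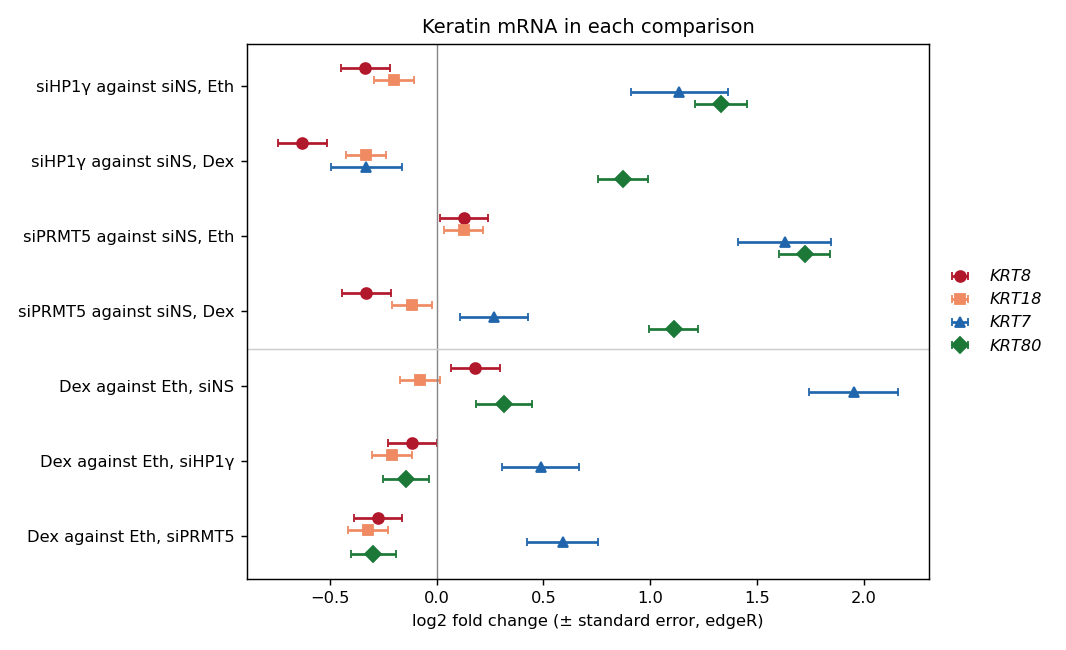
Log2 fold change with its standard error (edgeR) of KRT8, KRT18, KRT7 and KRT80 in the 4 depletion comparisons (top) and the 3 Dex comparisons (bottom), on a linear axis. KRT80 lies between 0.87 and 1.72 in the depletions, KRT8 and KRT18 between -0.63 and 0.13, and KRT7 is at 1.95 for Dex in siNS cells against 0.49 and 0.59 in depleted cells.

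KRT8 and KRT18 have many processed pseudogenes, intronless copies scattered over the genome, and a read that matches parent and copy may be assigned to the wrong row or dropped. The count files held 50 pseudogene rows of KRT8, of which 34 had a read, and 67 of KRT18, of which 51 had a read. The KRT8 pseudogenes took 14.5 to 16.5% of the reads of KRT8 and its pseudogenes in a library, and those of KRT18 7.35 to 8.55%. The medians of the 6 conditions lay between 14.75 and 15.84% for KRT8 and between 7.66 and 8.32% for KRT18. The pseudogene rows with the most reads were KRT8P3, KRT8P33 and KRT8P10 (15.5, 12.3 and 5.93 CPM) and KRT18P17, KRT18P38 and KRT18P28 (5.26, 4.06 and 3.68 CPM).

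The copies are close to their parents. Over the coding bases that could be aligned (95.6% to 99.7% of the coding sequence, GENCODE 44), KRT8P33 (chromosome 5, 123400922 to 123402344, minus strand) was 95.8% identical to KRT8, KRT8P10 (chromosome 2, 183071040 to 183072486, minus) 91.8% and KRT8P12 (chromosome 3, 160567852 to 160569248, plus) 90.5%.

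For KRT18 the identities over aligned coding bases (98% to 99.7% of the sequence) were 93.8% for KRT18P17 (chromosome 3, 12787393 to 12788671, minus strand), 91.9% for KRT18P38 (chromosome 6, 19612755 to 19614036, plus) and 92.1% for KRT18P28 (chromosome 1, 182959074 to 182960405, minus). To show how little sets a read of the gene apart from one of a copy, 90 bases of the coding sequence of KRT18 (coding bases 362 to 451) are given, where the copies differed at 4, 3 and 8 positions. Capitals mark the bases that differ from KRT18.
KRT18: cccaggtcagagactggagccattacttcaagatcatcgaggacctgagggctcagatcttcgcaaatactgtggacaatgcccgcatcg
KRT18P17: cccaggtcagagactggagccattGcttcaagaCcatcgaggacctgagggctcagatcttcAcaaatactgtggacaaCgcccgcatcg
KRT18P38: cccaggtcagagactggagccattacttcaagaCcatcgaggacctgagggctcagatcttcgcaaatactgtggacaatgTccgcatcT
KRT18P28: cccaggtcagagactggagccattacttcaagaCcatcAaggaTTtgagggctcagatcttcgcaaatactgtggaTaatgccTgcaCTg

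Long stretches of both transcripts have no difference at all from another annotated gene, which for KRT18 is often KRT8 rather than a copy. Of all windows of 50 bases in the canonical transcript, 39.2% of those of KRT8 and 52.8% of those of KRT18 occurred letter for letter in another annotated gene (KRT18 most often in KRT8, whose gene runs over it on the other strand), against 0.418% for KRT80, 1.79% for KRT19 and 11.7% for KRT7, mostly in KRT7-AS. The read length is not given in the sources used here, and with windows of 75 bases the shares were 18.8% for KRT8 and 28.4% for KRT18. Of the shared KRT18 windows, 326 of 720 with 50 bases and 293 of 380 with 75 bases occurred in KRT8. When KRT8 and KRT18 were each summed with their pseudogene rows before the fit, the log2 fold changes were -0.34 and -0.62 for KRT8 in siHP1γ cells with Eth and Dex and -0.33 for KRT18 with Dex, and the same calls were made. Of 147 keratin pseudogene rows 16 were tested, of which 3 were lower in siHP1γ cells with Dex, 2 with Eth and 1 in siPRMT5 cells with Dex, each a smaller share than the 24%, 31.8% and 42.4% of all genes called.

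**Figure D4:**
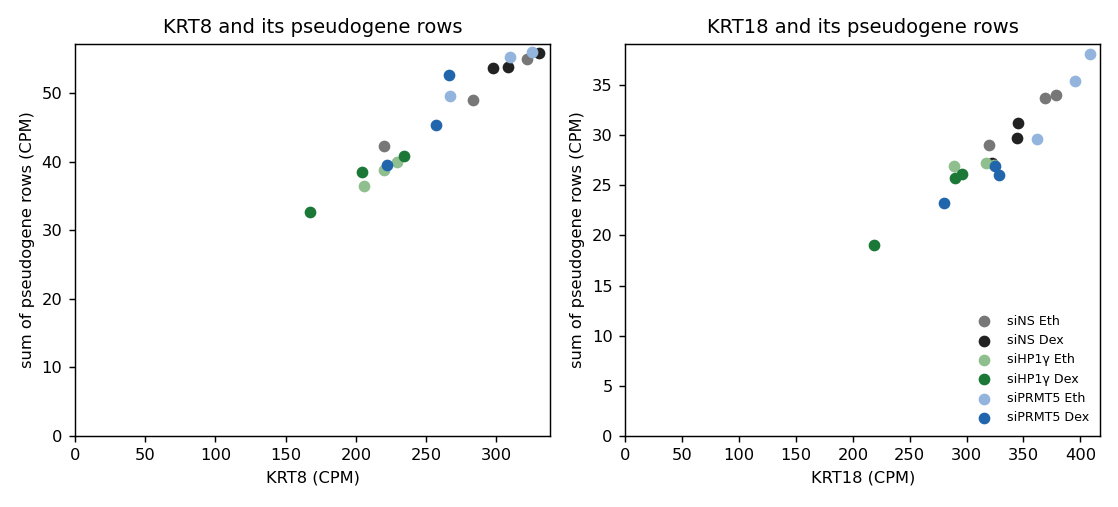
Sum of the pseudogene rows against the parent gene, for KRT8 (left) and KRT18 (right), in CPM on linear axes that start at 0, with 1 point per library coloured by condition. The points rise together in both panels, with the pseudogene rows at 14.5 to 16.5% of the joint reads for KRT8 and 7.35 to 8.55% for KRT18.

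KRT19 and KRT81 were at the edge of detection. KRT19 had 0 to 5 counts in a library, with 8 and 9 counts over the 3 libraries of siHP1γ Eth and Dex and 2 to 5 in the other conditions. KRT81 had 0 to 10 counts, with 13 and 19 over the libraries of siPRMT5 Eth and Dex, 11 in siHP1γ Dex and 2 to 4 in the other 3 conditions. Both were removed by the filter on low counts. Without a filter, KRT81 was higher in siPRMT5 than in siNS cells with Dex (log2 2.13, adjusted p = 0.0351), with 7, 10 and 2 counts against 0, 3 and 1, so the replicates overlapped. With Eth the value was 2.04 (adjusted p = 0.0993), and no comparison of KRT19 passed.

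The counts of KRT81 are also uncertain because its sequence is close to that of KRT86. Their coding sequences were 95.7% identical where aligned, and 44.6% of the 50-base windows of the KRT81 transcript occurred in another gene, mostly in KRT86.

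Beyond the list, few keratins were expressed. Of 48 other keratin genes, 2 were tested, both of type I and on chromosome 17: KRT10, a keratin of the upper epidermis (44.2 CPM on average), and KRT15, a keratin of basal epithelial cells (12.6 CPM). The only other one to reach 3 reads in a library was KRT32, at 0.575 CPM. All 21 other type II keratins, with the basal KRT5 and KRT6A among them, stayed under 3 reads in every library, and 16 had none. KRT15 was at 7.95, 8.05 and 6.53 CPM in siNS cells with Eth and at 24.3, 23.3 and 25.1 CPM in siHP1γ cells with Eth. It rose there (log2 1.69 ± 0.163, adjusted p = 1.88e-08) and in siHP1γ cells with Dex (0.996 ± 0.163, adjusted p = 5.68e-05). In siPRMT5 cells it rose with Eth (0.58 ± 0.182, adjusted p = 0.0123), a call lost in 2 of the 18 fits without 1 library, and with Dex it was at -0.18 (adjusted p = 0.474). KRT10 fell in siHP1γ cells with Eth (log2 -0.30 ± 0.0929, adjusted p = 0.0149), a call lost without siNS Eth replicate 1 (adjusted p = 0.0846) or siHP1γ Eth replicate 3 (0.0619) and with library size alone.

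The other intermediate filament genes, which include VIM, the lamins of the nuclear envelope and the filament-linked synemin (SYNM) and syncoilin (SYNC), were tested in 8 of 16 cases. VIM alone stood at 7463 CPM on average, above the sum of all keratins. Of the 8, 4 rose and 3 fell in siHP1γ cells with Eth, 4 rose and 4 fell with Dex, 4 rose in siPRMT5 cells with Eth, and 2 rose and 2 fell with Dex, where 31.8%, 24%, 42.1% and 42.4% of all genes were called in turn. The lamins B1 and B2 led in siHP1γ cells: LMNB1 was at 226 ± 2.43 CPM in siNS cells with Eth and at 106 ± 5.20 in siHP1γ cells (log2 -1.10, adjusted p = 4.45e-12), and LMNB2 changed by -1.12 (adjusted p = 1.07e-11). In siPRMT5 cells with Eth LMNB1 instead rose (0.91, adjusted p = 1.82e-11). SYNM rose there (1.03, adjusted p = 3.07e-10) and also in siHP1γ cells (0.85 with Eth, adjusted p = 2.95e-08, and 0.70 with Dex, adjusted p = 6.34e-07). VIM itself fell in siHP1γ cells (-0.29 with Eth, adjusted p = 0.000797, and -0.28 with Dex, adjusted p = 0.00185) and did not pass in siPRMT5 cells.

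Keratin filaments end at desmosomes and hemidesmosomes, where plakin proteins tie them to the membrane. Of 24 genes listed as keratin linkers or desmosome genes, 16 were tested. Highest in CPM, which is not scaled by length, were DST, PLEC and PNN (947, 881 and 465 CPM). In siPRMT5 cells 5 rose and 3 fell with Eth and 4 rose and 5 fell with Dex, against 42.1% and 42.4% of all genes called. In siHP1γ cells 5 rose and 3 fell with Eth and 3 rose and 2 fell with Dex, against 31.8% and 24%. Medians over the 16 lay between -0.12 and 0.18 in these 4 comparisons, against 0.00 to 0.01 over all genes tested. DSP (desmoplakin, which binds keratin filaments to desmosomes) was at 131, 141 and 138 CPM in siNS cells with Dex and at 43.2, 50.2 and 45.1 CPM in siPRMT5 cells with Dex. It fell there by 1.56 on the log2 scale (adjusted p = 2.81e-13) and by 1.01 with Eth (adjusted p = 8.60e-10). JUP (plakoglobin, of the desmosomal plaque) rose with Eth (1.13, adjusted p = 1.58e-07).

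Dex changed other linker genes in siPRMT5 cells, where 1 rose and 2 fell of the 16 tested, against 5.44% of all genes called. PKP2 (plakophilin 2, of the desmosomal plaque) was at 27.1, 24.5 and 24.7 CPM with Eth and at 113, 113 and 112 CPM with Dex (log2 2.15, adjusted p = 2.98e-17). ITGB4 (integrin β4, of the hemidesmosome) was at 28.4, 30.3 and 30 CPM with Eth and at 13.4, 10.8 and 16.5 CPM with Dex (log2 -1.14, adjusted p = 3.62e-07). COL17A1, its partner in hemidesmosomes, also fell (-0.78, adjusted p = 0.000148). It was lower with Dex in siNS (-0.56) and siHP1γ cells (-0.35) too, without passing the threshold for Dex. The COL17A1 response in siPRMT5 cells did not pass the test for a difference from siNS cells (interaction -0.22, adjusted p = 0.61). The 15 epithelial markers summed to 31.5 to 35.4 CPM in siPRMT5 cells with Eth and to 23.3 to 27.2 CPM with Dex. In siNS cells they summed to 27.7 to 33.7 CPM with Eth and to 24.4 to 28.7 CPM with Dex. In siHP1γ cells the sums were 32.6 to 34.1 CPM with Eth and 29.6 to 33.9 CPM with Dex. The part of these markers in the keratin values was not tested.

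Among the 11411 tested genes that averaged 5 CPM or more, the 5 whose pattern over the 18 libraries was most like that of KRT7 (Pearson r of log2 CPM) were TNKS1BP1 (r = 0.96), PACSIN2 (0.95), A4GALT (0.944), TRIP10 (0.942) and FN1 (0.927). They were chosen for this likeness, and the libraries share conditions, so no test is given. FN1, which encodes the matrix protein fibronectin and is a mesenchymal marker, was at 143 ± 14.0 CPM in siNS cells with Eth, at 479 ± 8.71 with Dex, at 223 ± 19.0 and 411 ± 45.4 in siHP1γ cells and at 361 ± 28.1 and 629 ± 68.6 in siPRMT5 cells. TNKS1BP1 was at 59.8 CPM in siNS cells with Eth and at 88.5 with Dex, and like KRT7 it was higher with Eth after either depletion (79.5 and 88.8 CPM). None of the other listed keratins came near this likeness, the closest being KRT80 with r = 0.544.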

How the data were processed

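RNA from 18 MDA-MB-231 libraries was sequenced by the authors, mapped on hg38 with Bowtie2 2.4.2 and counted with HTSeq 0.9.1, per the labels and the submitters' processing notes. The authors deposited raw counts per gene symbol for each library. A table of their own DESeq2 (2.11.40.7) comparisons, with log2 fold changes and p-values, was not used. Bowtie2 aligns without introns, so a read that spans an exon junction may go unmapped or land on an intronless pseudogene. The strand setting, read length and annotation of the counting are not given in the sources used here. The replicates are biological per the study's methods, and all replicate pairs differed by more than sampling noise.

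Groups were taken from the sample titles. Counts were filtered with filterByExpr, scaled by TMM and fitted in 1 edgeR 4.0.16 quasi-likelihood model (R 4.3.3, 1 mean per condition, 12 residual degrees of freedom). P-values were adjusted by Benjamini-Hochberg over 15298 genes. The threshold for Dex combined at least 1.5-fold, from the Results text of the study, with adjusted p under 0.01, from a legend that gives a higher fold. For depletions it was adjusted p under 0.05, as in that legend. The same 0.05 was set here for interactions. The script was tested on simulated data. Standard errors of log2 fold changes come from the fit of all 18 libraries, as the absolute log2 fold change divided by the square root of its F statistic. SDs are over 3 replicates.

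The keratins and the gene lists were chosen with earlier results of these data known. Besides the 7 keratins, the siRNA targets and overlapping genes, the genes named were the 3 highest of each list, at most the 2 largest called changes of a list per comparison, and the 5 genes most like KRT7. CDH1, GRHL2, CDH2, CDH11, FOXC2, TWIST1, TWIST2, SNAI1, SPARC, KRT32, KRT5, KRT6A, COL17A1 (for Dex), SYNM (in siHP1γ cells) and KRT8P12 were named after their values were seen. KRT7 was tested only for Dex in siPRMT5 cells. Alternatives were DESeq2 1.42.0, DESeq2's size factors or library size alone in edgeR, no filter, at least 10 counts in every library, a replicate block, the libraries of each comparison alone, rows summed with pseudogenes, and each library left out. Positions, transcripts and sequences are from GENCODE 44 on hg38. Some sequences are not reported here.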

Additional observations from a re-analysis of the deposited data

Results flagged for a closer look

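The Dex response of depleted cells minus that of siNS cells passed the interaction test (edgeR, adjusted p under 0.05) for 1 tested keratin and for several named partner genes. All of those given here passed in siPRMT5 cells, where 3.8% of all genes passed. For KRT80 the difference in siPRMT5 cells was -0.61 on the log2 scale (adjusted p = 0.0383), from 0.32 in siNS cells to -0.30 in siPRMT5 cells. The call was lost in 11 of the 18 fits without 1 library.

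Of the desmosome and hemidesmosome genes, PKP2 differed by 1.58 in siPRMT5 cells (adjusted p = 1.42e-09), with Dex responses of 0.57 in siNS and 2.15 in siPRMT5 cells, and ITGB4 by -1.18 (adjusted p = 0.000372), with 0.04 and -1.14. Of the 16 linker genes tested, 1 was higher and 3 were lower. Of the filament genes outside the keratins, SYNC differed by -0.96 (adjusted p = 0.00564) and SYNM by -0.62 (adjusted p = 0.00338), both in siPRMT5 cells. Of the 8 such genes tested, 3 were lower and 0 higher.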

How the results depend on the processing

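The 4 depletion calls of KRT80 held under every alternative and without any single library. Single libraries moved the number of keratins called from 0 to 1 for Dex in siPRMT5 cells and for its difference from siNS cells, from 1 to 2 in siPRMT5 cells with Dex, from 1 to 3 in siHP1γ cells with Eth and from 2 to 3 with Dex, and kept it at 1 in siPRMT5 cells with Eth. For KRT7 they moved the Dex response from 1.70 to 2.11 in siNS cells, from 0.34 to 0.72 in siHP1γ cells and from 0.54 to 0.66 in siPRMT5 cells, and the difference between siHP1γ and siNS cells from -1.62 to -1.21. KRT8 in siPRMT5 cells with Eth ranged from -0.01 (without siNS Eth replicate 1) to 0.25.

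With library size alone, the call of KRT8 in siHP1γ cells with Eth was lost (-0.28, adjusted p = 0.0619), which leaves 1 call there, and with the libraries of the comparison alone KRT18 was called too, which makes 3. For Dex in siPRMT5 cells KRT7 (0.59) was called with no filter and with the libraries of the comparison alone, so the count became 1 in each. With no filter the interaction count in siPRMT5 cells became 2. The sum of KRT81 with KRT83 did not pass the filter and gave no value. The cause of these changes was not tested.

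Same-numbered replicates deviated from their group means with correlations of -0.133 to 0.274. What they share beyond the number is not stated in the labels, and these correlations cannot settle it. With the replicate number as a block, the counts of keratins called were 1 and 2 in siPRMT5 cells with Eth and Dex, 2 and 3 in siHP1γ cells, 0 for Dex in siPRMT5 cells and 1 for its difference, and KRT7 was at 0.59 for Dex in siPRMT5 cells (adjusted p = 0.0156). These are the counts of the fit without it.

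KRT7 rests on 16 to 169 counts in a library, KRT19 on at most 5 and KRT81 on at most 10, so differences of the latter 2 were hardly detectable at this depth.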
